A study of Rattus norvegicus with 8 samples.

Results

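Cyp1a1, Cyp1a2, Cyp1b1 and Ahrr, the cytochrome P450 family 1 enzymes and the repressor of the aryl hydrocarbon receptor (AhR), were followed in the livers of young rats. The 4 genes were found by matching each probe's transcript accession to a rat gene table, and each had 1 probe among the 30367 probes of the array, of which 18005 carried a gene symbol. The livers came from male Sprague-Dawley pups at postnatal day 21. In the 0.5MAhR group, the dams received 0.5 mg/kg/day of a mixture of organochlorine pesticides, polychlorinated biphenyls (PCBs) and methyl mercury in corn oil, together with AhR agonists (non-ortho PCBs, dioxins and dibenzofurans). The labels give a total of 6.3 ng/kg/day for this group, in toxic equivalents of the dioxin TCDD. In the Control group the dams received corn oil. Dosing ran through gestation and most of nursing, so that the pups themselves were exposed through their mothers, and neither group was cross-fostered. Each array held pooled RNA of 2 pups, and 8 pups of each group gave 4 arrays, here called replicates 1 to 4 of 0.5MAhR and replicates 5 to 8 of Control, after the numbers in the labels. The pups' litters are not known here, and p-values therefore measure the spread between pools. A further set of arrays of the same study, with other doses and ages, was not analysed here.

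The AhR is a transcription factor that waits in the cytoplasm with chaperones until a planar ligand such as a dioxin binds it. It then enters the nucleus, pairs with ARNT and binds DNA at elements with the core GCGTG. The CYP1 enzymes are its best known targets: CYP1A1 and CYP1A2 oxidise polycyclic aromatic hydrocarbons and aromatic amines, CYP1A2 is the liver's constitutive member, and CYP1B1 is found mainly outside the hepatocyte. AHRR competes with the receptor for ARNT and is itself a target.

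The promoters of the members are shown because the receptor's core motif can be read in them. RefSeq promoter windows of the GRCr8 build, 250 bases before to 50 after the start, were matched by symbol for 3 members, Cyp1a2, Cyp1b1 and Ahrr. Each is printed 5′ to 3′ on the gene's strand, and capitals mark GCGTG or its complement CACGC. Cyp1a2 lies at chr8:66978100-66978399 on the minus strand, Cyp1b1 at chr6:21094315-21094614 on the plus strand and Ahrr at chr1:30821969-30822268 on the plus strand.
Cyp1a2: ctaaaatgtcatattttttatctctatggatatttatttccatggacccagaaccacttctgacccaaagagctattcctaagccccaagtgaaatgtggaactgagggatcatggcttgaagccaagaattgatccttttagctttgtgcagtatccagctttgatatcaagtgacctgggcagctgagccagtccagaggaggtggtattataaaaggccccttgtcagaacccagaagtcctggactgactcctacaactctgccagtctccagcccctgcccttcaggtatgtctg
Cyp1b1: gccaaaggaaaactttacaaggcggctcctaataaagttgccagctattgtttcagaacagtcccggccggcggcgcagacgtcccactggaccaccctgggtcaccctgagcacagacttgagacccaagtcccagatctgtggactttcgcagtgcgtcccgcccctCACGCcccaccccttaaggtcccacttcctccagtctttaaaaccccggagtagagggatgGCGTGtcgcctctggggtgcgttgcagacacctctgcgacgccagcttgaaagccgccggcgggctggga
Ahrr: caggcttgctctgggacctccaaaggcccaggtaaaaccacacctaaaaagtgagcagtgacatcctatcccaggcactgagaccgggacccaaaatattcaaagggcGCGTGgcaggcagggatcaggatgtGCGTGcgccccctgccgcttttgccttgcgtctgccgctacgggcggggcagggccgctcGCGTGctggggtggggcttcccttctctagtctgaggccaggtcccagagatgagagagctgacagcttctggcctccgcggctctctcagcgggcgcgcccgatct
The window of Cyp1a2 held 0 copies of GCGTG on either strand, that of Cyp1b1 held 2 and that of Ahrr held 3. Of 33469 promoter windows of this length in the table, 29.7% held at least 1 copy and 3.59% held 3 or more. The longer form TNGCGTG, which contains the core and so overlaps it, occurred once in the window of Cyp1b1 and once in that of Ahrr, and 4.89% of all windows held it. A match describes the letters of this window and nothing about the receptor's binding.

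Each array carried the liver sample in Cy5 and, in Cy3, a universal rat reference RNA made from 14 cell lines, with the same dye orientation throughout. Intensities are given as net signals, the median of a spot minus the median of its local background, averaged over the spots of a probe. A spot counts as above background where the scanner software marked it so, and an array counts where over 0.5 of the probe's spots were marked. Between 42.9% and 49.2% of spots were above background in Cy5 and no spot was saturated. The 8 arrays lay on 1 slide. The first position number in each array's name is here called its slide side, and side 1 held 0.5MAhR replicates 2 and 4 with Control replicates 5 and 7, while side 2 held the other arrays. Relative to the mean of all 8 arrays, Cy5 followed the array row in opposite ways on the sides. Each spot's mean log2 Cy5 over the 8 arrays was subtracted, and the remainder was correlated with the row. Over 26329 spots the correlation was 0.80 to 0.82 on side 1 and between -0.80 and -0.72 on side 2, and it was present in both groups. Because of the subtraction, these values do not give the trend of 1 side by itself. The second position number, here called the slide place, ran over 4 places, each with 1 array of 0.5MAhR and 1 of Control on opposite sides. The 0.5MAhR array lay on side 2 at places 1 and 3 and on side 1 at places 2 and 4. A difference within a place therefore also holds the difference between sides. Median Cy5 background moved with the place, at 68, 69, 71 and 73 for places 1 to 4 in either group. Fits are therefore given without and with slide side, and, as a choice made after the spots were seen, with each array's trend over rows removed or with slide place as a block.

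Cyp1a1 was higher in every 0.5MAhR array than in any Control array, and it was the member with the plainest difference. Its net Cy5 signal in 0.5MAhR livers was 389, 671, 1180 and 1221 for replicates 1 to 4. In Control livers it was 40.5, 13.1, 28.1 and 75.9 for replicates 5 to 8. The groups were far apart, with the lowest 0.5MAhR array, replicate 1, several times above the highest Control array, replicate 8. The means were 865 ± 404 in 0.5MAhR and 39.4 ± 26.8 in Control (SD, n = 4 each), a ratio of 22.0. Of all 27526 genes or unnamed probes with a net Cy5 signal, 0.578% were likewise higher in every 0.5MAhR array. The probe was above background on 4 of 4 arrays of 0.5MAhR and on 3 of 4 Control arrays, since none of the 8 spots used on Control replicate 6 was marked. In bulk liver RNA, a change in the cells that make a transcript and a change in the transcript per cell cannot be told apart.

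After normexp background correction with an offset of 50 and loess normalisation, the log2 ratio of Cyp1a1 to the reference was 4.15, 4.84, 5.27 and 5.47 in 0.5MAhR, against 1.02, 0.30, 0.71 and 1.55 in Control. The means were 4.93 ± 0.59 in 0.5MAhR and 0.90 ± 0.53 in Control (SD, n = 4 each), and the difference was 4.04 (SE 0.33, 95% interval 3.28 to 4.80), or 16.4-fold. It rose past the threshold, an adjusted p under 0.05 in limma, with an adjusted p of 0.00925, and of 0.00283 with slide side fitted. Of the 10567 genes or unnamed probes tested, 0.00946% were called higher in log2 ratio without slide side, Cyp1a1 being the 1 gene, and 0.0473% with it. Groups that did not overlap in this direction made up 0.785% of them. The difference was 4.29 within side 1 and 3.79 within side 2. Without row trends it was 4.05 (adjusted p = 0.000705). Within slide places 1 to 4 it was 3.13, 4.54, 4.56 and 3.92, higher in 0.5MAhR at each. With slide place alone as a block Cyp1a1 missed the threshold (SE 0.28, adjusted p = 0.159), and with side and place together it passed (SE 0.23, adjusted p = 0.00424).

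The 2 channels of Cyp1a1 behaved differently. In Cy5 alone, after quantile normalisation between arrays, Cyp1a1 rose by 3.10 (log2, SE 0.22), or 8.59-fold, with an adjusted p of 0.00399, and 0.00946% of genes were called higher there. With slide place alone fitted the adjusted p in Cy5 was 0.249, and with side and place it was 0.00405. In Cy3 alone the difference was 0.02 (95% interval -0.04 to 0.09, adjusted p = 1.00). The net Cy3 signal was 14.8, 29.8, 17.1 and 18.9 on the 0.5MAhR arrays, against 18.5, 15.5, 14.6 and 19.8 on the Control arrays, and it was above background on 0 arrays of either group. The reference thus gave no measurable Cyp1a1 signal, and the ratio had a denominator at background. The difference in log2 ratio was 4.04 with loess and 3.07 with median centring, against 3.10 in Cy5 alone. With an offset of 16 the Cy5 difference was 3.68. Its size thus also depended on the processing, and the share of each channel or step in the ratio difference was not tested.

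**Figure D1:**
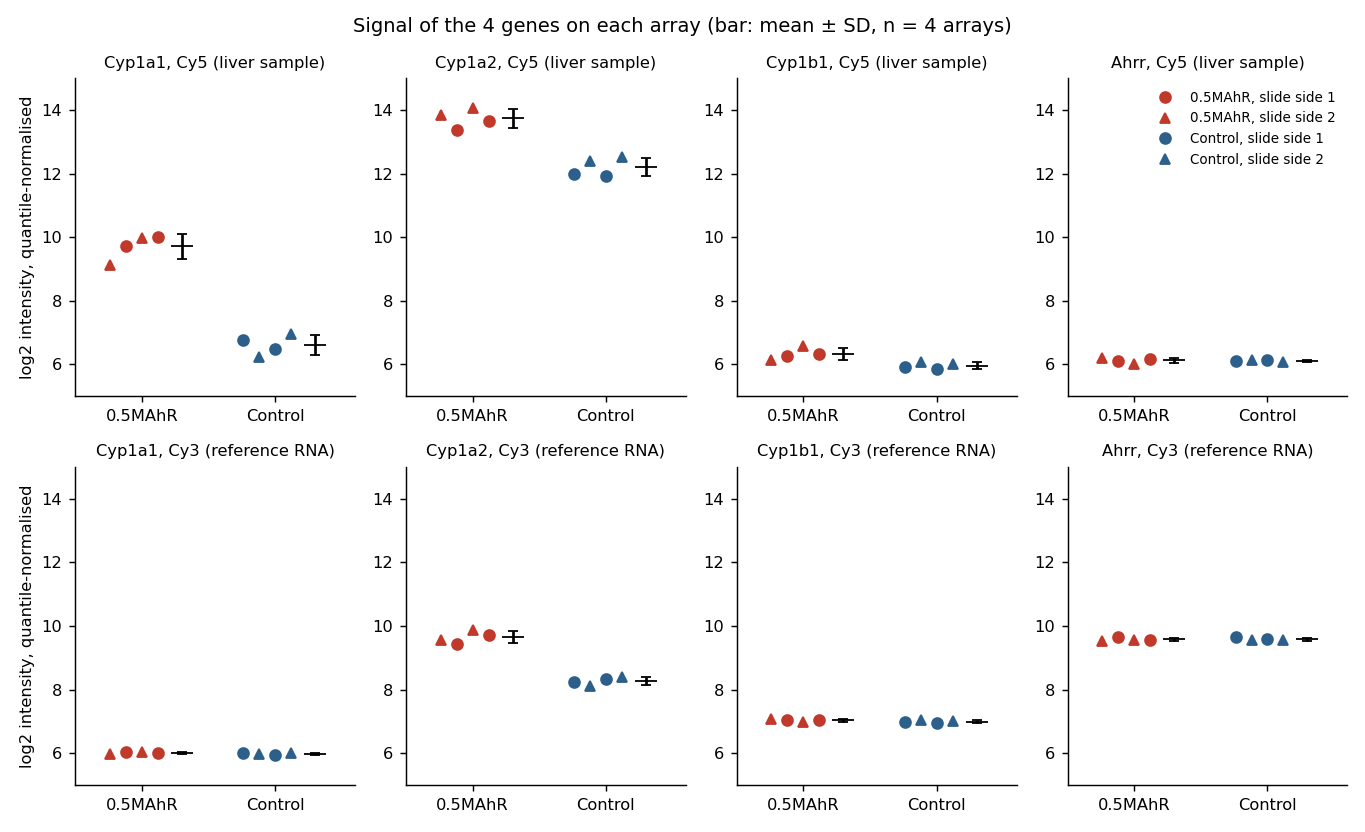
Background-corrected, quantile-normalised log2 intensity of the 4 probes on each array, Cy5 above and Cy3 below, with the mean ± SD of 4 arrays beside each group and the marker shape giving the slide side. Cyp1a1 was higher in 0.5MAhR in Cy5 (difference 3.10) and not in Cy3 (0.02), Cyp1a2 was higher in both (1.53 and 1.38), and Ahrr lay near the floor in Cy5 in both groups.

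The Cyp1a1 probe was spotted 10 times on each array, at rows 26 to 354, which allowed the difference to be read at 10 places. At every one of the 10 places the log2 ratios of the groups did not overlap. The difference between the group means ran from 3.71, at row 354, to 4.30, at row 190, and the ratio of net Cy5 means ran from 18.1 to 29.6. Over all spots, outlier spots included, the net Cy5 signal was 240.5 to 1465 in 0.5MAhR, against 2 to 96 in Control. These spots share the array and its RNA and are not replicates of the condition.

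Within an array the Cyp1a1 signal moved with the row, in the direction that the array's spots took relative to the mean of all arrays. The correlation of net Cy5 with row, here without subtracting a mean, was -0.98, 0.97, -0.92 and 0.69 for 0.5MAhR replicates 1 to 4. It was negative on side 2 and positive on side 1. In Control, where the signal was close to background, it was 0.54, -0.27, 0.43 and -0.66 for replicates 5 to 8. The spread over spots, as a coefficient of variation, was 9.41% to 24.3% in 0.5MAhR and 14.1% to 45.2% in Control, small beside the ratio between the groups.

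**Figure D2:**
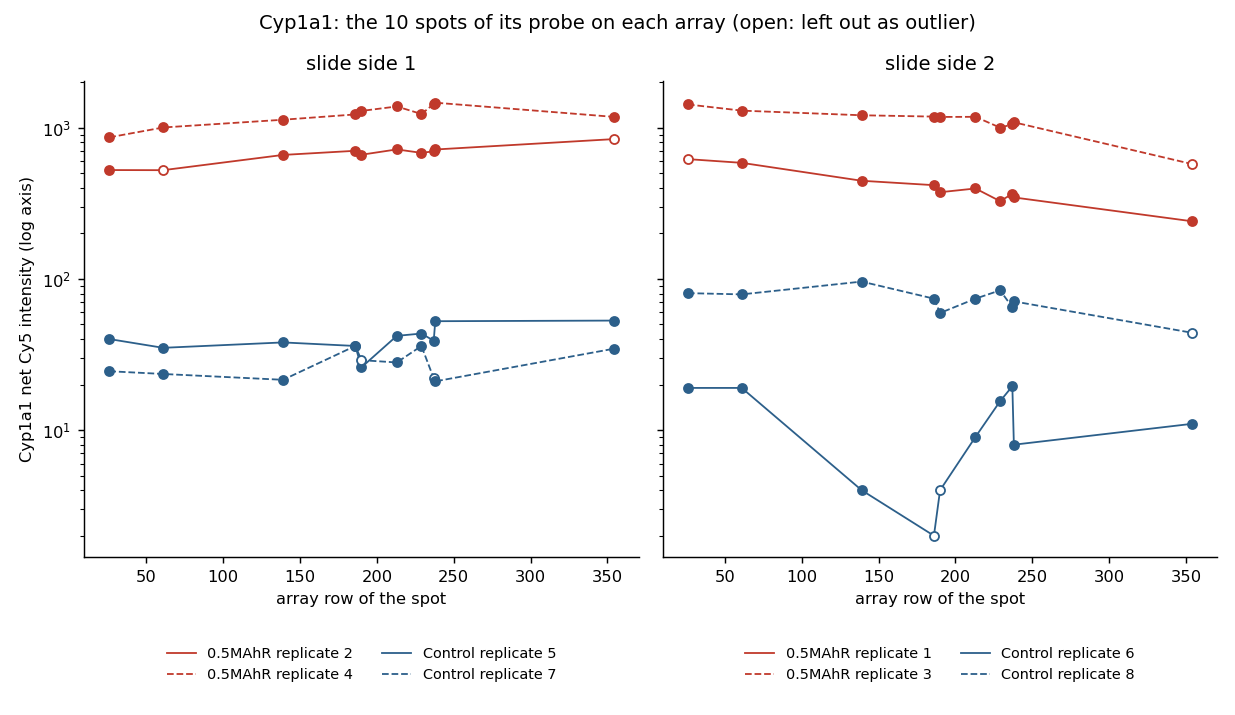
Net Cy5 intensity of the 10 Cyp1a1 spots (log axis) against their array row, 1 line per array, with slide side 1 on the left and side 2 on the right and open points for spots left out as outliers. The 0.5MAhR spots (240.5 to 1465) lie above all Control spots (2 to 96) on both sides, and the 0.5MAhR lines slope up on side 1 and down on side 2.

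The size of the Cyp1a1 difference depended on the processing more than on single arrays. It was 3.07 where median centring replaced loess, 4.67 where the offset was 16 and 5.20 in the log ratio that the scanner software computed, whose adjusted p was 0.163, and leaving out single arrays gave 3.84 to 4.30. Without slide side, Cyp1a1 passed in 4 of 8 fits with 1 array left out, missing the threshold without 0.5MAhR replicate 2 (adjusted p = 0.0563), 0.5MAhR replicate 3 (0.0667), Control replicate 5 (0.0601) or Control replicate 7 (0.0734), and with slide side it passed in 8 of 8. Without Control replicate 6, the array with no spot above background, the difference was 3.84 (adjusted p = 0.0333).

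**Figure D3:**
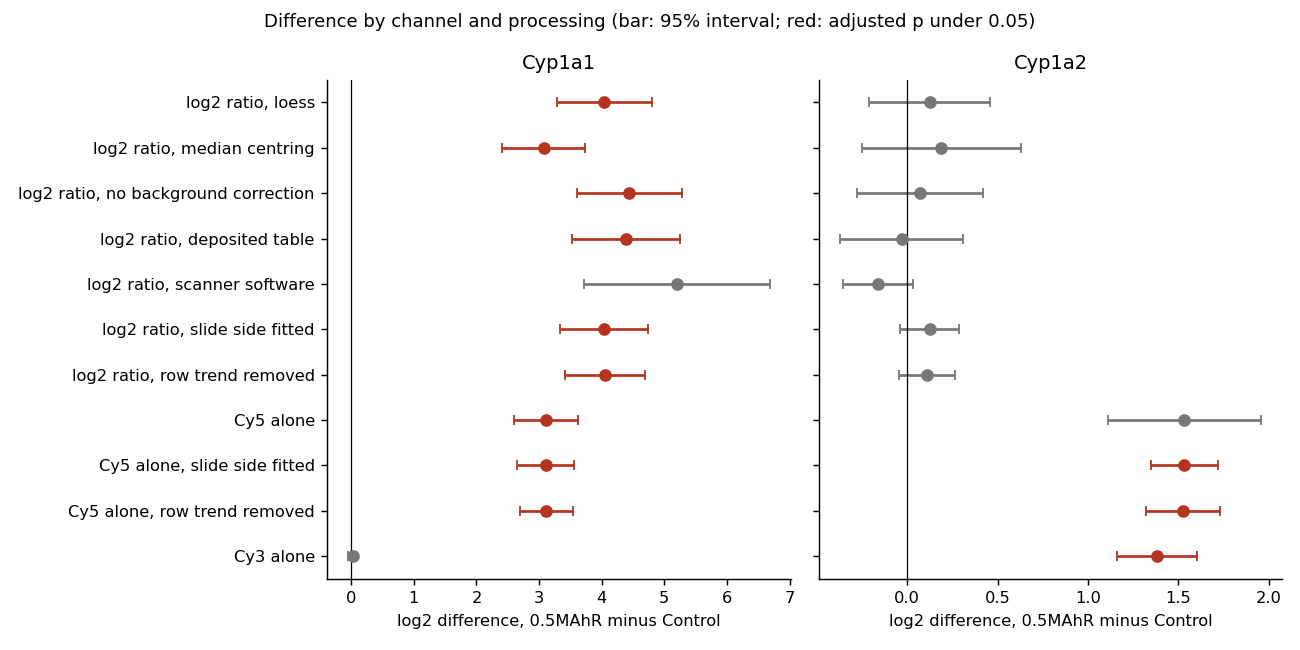
Difference of 0.5MAhR minus Control for Cyp1a1 and Cyp1a2 by channel and processing, as points with 95% intervals on a log2 axis, red where the adjusted p is under 0.05. For Cyp1a1 the plotted log2 ratio and Cy5 differences are all above 3, while for Cyp1a2 the log2 ratios lie between -0.16 and 0.19 and both single channels lie above 1.

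Cyp1a2 was about 3-fold brighter in 0.5MAhR livers in Cy5, and its reference channel was brighter by nearly as much. The net Cy5 signal in 0.5MAhR was 11329, 9124, 21428 and 16290 for replicates 1 to 4. In Control it was 3564.5, 4482, 4100 and 6638.5 for replicates 5 to 8. Each 0.5MAhR array was above each Control array. The means were 14543 ± 5482 in 0.5MAhR and 4696 ± 1348 in Control (SD, n = 4 each), a ratio of 3.10. The probe was above background in both channels on all 8 arrays.

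The net Cy3 signal of Cyp1a2 was 678.5, 668.75, 857.5 and 869.5 on the 0.5MAhR arrays, against 273, 219, 273.75 and 278.75 on the Control arrays. These groups did not overlap either, although the labels give the same reference RNA for every array. The Cy3 means were 769 ± 110 in 0.5MAhR and 261 ± 28.2 in Control (SD, n = 4 each), a ratio of 2.94, and 0.476% of all genes or unnamed probes had Cy3 signals that were all higher on the 0.5MAhR arrays. As a percentage of the Cy5 signal, Cy3 was 5.99%, 7.33%, 4.002% and 5.34% in 0.5MAhR, against 7.66%, 4.89%, 6.68% and 4.20% in Control. That percentage overlapped between the groups, staying between 4.002% and 7.66% on all 8 arrays. What made the Cy3 signal differ was not tested.

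In Cy5 alone the log2 difference of Cyp1a2 was 1.53 (SE 0.19), or 2.90-fold, which did not pass the threshold (adjusted p = 0.129). With slide side fitted it rose past it (SE 0.08, adjusted p = 0.000135), where 0.132% of genes were called higher, and likewise without row trends (1.53, adjusted p = 7.26e-05). With slide place alone it did not pass (adjusted p = 1.00), and with side and place it did (adjusted p = 0.00405). The difference was 1.56 within side 1 and 1.51 within side 2, and 1.86, 0.98, 2.14 and 1.16 within places 1 to 4. The values within places also hold the difference between slide sides. In Cy3 alone Cyp1a2 rose by 1.38 (SE 0.10, adjusted p = 0.00254), or 2.61-fold, and by as much with slide side fitted (adjusted p = 0.00350) or slide place fitted (adjusted p = 0.0102). It was the 1 gene of 10567, or 0.00946%, called higher in Cy3, and it passed in all 8 fits with 1 array left out.

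The ratio of the channels differed little for Cyp1a2. Its log2 ratio was 5.41, 5.16, 5.43 and 5.19 in 0.5MAhR, against 5.00, 5.46, 4.90 and 5.34 in Control. The groups overlapped, and the side 2 arrays were the higher in each group. The means were 5.30 ± 0.14 in 0.5MAhR and 5.17 ± 0.27 in Control (SD, n = 4 each), a difference of 0.12 (95% interval -0.21 to 0.46, adjusted p = 1.00). It was -0.03 in the deposited value table and -0.16 with the scanner software's log ratio.

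**Figure D4:**
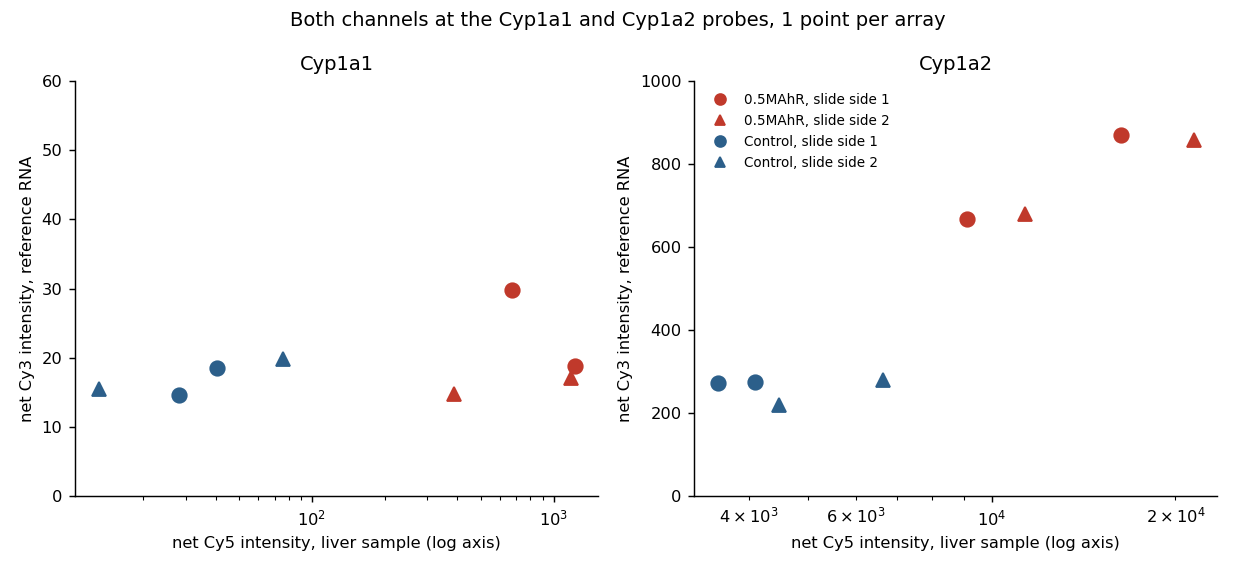
Net Cy3 intensity against net Cy5 intensity (log axis) at the Cyp1a1 probe, left, and the Cyp1a2 probe, right, 1 point per array. At Cyp1a1 the Cy3 signal stays between 14.6 and 29.8 in both groups, while at Cyp1a2 it is 668.75 to 869.5 on the 0.5MAhR arrays and 219 to 278.75 on the Control arrays.

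Cyp1b1 was near the limit of measurement in liver, and what signal there was lay in 0.5MAhR. Its net Cy5 signal was 7.25, 13.75, 42 and 23 in 0.5MAhR, against -1, 5.25, -3.5 and 4.5 in Control. The groups did not overlap, as for 0.578% of all genes or unnamed probes. The probe was above background on 1 of 4 arrays of 0.5MAhR, replicate 3, with 1 of 2 spots marked on replicate 4, and on 0 of 4 Control arrays. It therefore did not pass the filter for testing, which asked for 3 arrays of a group above background.

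For such a gene the bright group's mean was set against a floor. On each dim array the floor was the higher of the probe's own signal and the lowest signal marked above background. The ratio of 0.5MAhR to this floor was 1.28 for Cyp1b1. Only 1 array of 0.5MAhR was marked, and the group's mean includes the unmarked arrays. The ratio is therefore not a lower limit on the fold in the liver. The mean log2 Cy5 signals behind the ratio, after loess and scaling between arrays, were 6.70 in 0.5MAhR and 6.21 in Control. The floor was 6.34 in Control, and no dyes were swapped. Among all 27530 genes or unnamed probes without the filter, its log2 ratio differed by 0.56 (SE 0.14, unadjusted p = 0.00368, adjusted p = 1.00), with an adjusted p of 0.463 when slide side was also fitted. Since Cy5 was not above background on 7 of the 8 arrays, this difference gives no fold for the liver. In that set 0.00363% were called higher without slide side and 0.0218% with it. The log2 ratio was -0.25, -0.09, 0.44 and -0.03 in 0.5MAhR, against -0.59, -0.38, -0.70 and -0.52 in Control, and 1.01% of the unfiltered set was likewise higher on every array. In the scanner software's log ratio the groups overlapped, at -2.58 to 0.43 in 0.5MAhR and -3.10 to -2.19 in Control. In the deposited value table they did not overlap. The reference was measured on all 8 arrays, at a net Cy3 of 74.75 to 96.5 in 0.5MAhR and 76 to 84.5 in Control.

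Ahrr, the repressor, was not above background in the Cy5 channel on any array. The net Cy5 signal was 9.25, 7.5, 4 and 14.25 in 0.5MAhR, against 7, 8, 8.75 and 8 in Control. The groups overlapped, with the highest and the lowest array both in 0.5MAhR. Its log2 ratio averaged -2.20 ± 0.25 in 0.5MAhR and -2.21 ± 0.11 in Control (SD, n = 4 each), and the difference in the unfiltered fit was 0.01 (95% interval -0.28 to 0.29, adjusted p = 1.00). Since Cy5 was at background in both groups, these ratios carry no fold for the liver. The probe itself gave signal, because the reference was above background on all 8 arrays, at a net Cy3 of 662 to 788 in 0.5MAhR and 670.5 to 807 in Control. An Ahrr change below the array's floor was not detectable here.

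The receptor and its partners gave no gene past the threshold. Of 7 genes of the receptor complex, 6 were tested, 3 with a positive and 3 with a negative difference, and the median was -0.02. All genes tested had a median of -0.01, with 4940 positive and 5627 negative. The receptor Ahr differed by 0.09 (SE 0.16, adjusted p = 1.00). Arnt, its nuclear partner, was not above background on enough arrays to be tested. Of 7 coregulators 1 was tested, Nrip1, a corepressor of nuclear receptors, at -0.02.

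Other known targets of the receptor had no call. Of 13 listed, 10 were tested, 7 with a positive difference and a median of 0.22, and 0 passed the threshold with or without slide side. At an unadjusted p under 0.05 with slide side fitted there were 5, all higher, where 3.49% of all genes were. The quinone reductase Nqo1 differed by 0.90 (SE 0.17 with slide side, adjusted p = 0.191) and was the 1 of these whose groups did not overlap, as for 0.785% of all genes. The others were the glutathione transferases Gsta1 (0.49) and Gsta3 (0.52), the glucuronosyltransferase Ugt1a6 (0.51) and Nfe2l2 (0.30), the regulator of the oxidative stress response. Genes of the GSTA and UGT1A families have near-identical copies, and their probes may share signal. Each of these 5 was positive within both slide sides. They were picked by the fit with slide side on the same arrays, so this adds no separate support.

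Among the proteins that supply P450 enzymes with electrons and heme, all 6 listed genes were tested, 5 with a positive difference and a median of 0.17. Cyb5a, cytochrome b5, a small electron donor to P450 enzymes, had a log2 ratio of 4.80 ± 0.33 in 0.5MAhR and 4.26 ± 0.29 in Control (SD, n = 4 each), and these groups overlapped. The difference was 0.54, and it passed the threshold with slide side fitted (SE 0.06, adjusted p = 0.0223) and not without it (adjusted p = 1.00). Pgrmc1, a heme-binding protein that interacts with P450 enzymes, differed by 0.37 (adjusted p = 0.290 with slide side). Por, the reductase on which all microsomal P450 enzymes depend, differed by -0.06. Of 3 hepatocyte factors that act at Cyp1a genes, 2 were tested, Hnf4a at 0.04 and Nr1i3 at -0.04.

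Genes that varied like the members were ranked by Pearson's r over the 8 arrays after the mean of each slide side was subtracted, among 6937 named genes, as a description of arrays that share a slide and a reference. The group difference was not subtracted. A high r therefore largely reflects a separation of the groups and does not show that genes vary together within a group. Closest to Cyp1a1 in log2 ratio were Cyb5a (0.98), Ceacam4 (0.98), Pgk1 (0.97), Smtnl2 (0.97) and Arpc1b (0.96). Their differences in log2 ratio were 0.54, 1.64, 0.18, 0.10 and 0.24, all far smaller than that of Cyp1a1. Cyb5a and Ceacam4 passed the threshold with slide side fitted (adjusted p = 0.0223 for each) and not without it. Pgk1, Smtnl2 and Arpc1b passed in neither fit. Closest to Cyp1a2 in Cy5 alone were Cyp1a1 (0.99), Cyb5a (0.99), Cyp2c6v1 (0.98), Enpp2 (0.98) and Cxcl9 (0.97). Cyp2c6v1, a P450 of the CYP2C subfamily, differed by 0.97 in Cy5 and by 0.67 in Cy3. In Cy5 it passed the threshold with slide side fitted (adjusted p = 0.00829) and not without it. In Cy3, unlike Cyp1a2, it was called neither without nor with slide side. Cyb5a differed by 0.60 in Cy5 and 0.03 in Cy3.

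Genes next to the members on the chromosome showed no call. Cyp1a1 and Cyp1a2 are themselves neighbours on chromosome 8, and of the 3 nearest genes on each side of them, Csk differed by 0.02 and Clk3 by 0.05. Around Cyp1b1, Atl2 differed by -0.05, Rmdn2 by 0.02 and Cdc42ep3 by -0.07. Around Ahrr, Sdha differed by 0.09, Pdcd6 by 0.03 and Exoc3 by -0.01. The other neighbours were not tested.

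The tissue label was checked against cell markers. All 7 hepatocyte markers (such as Alb and Ttr) were tested and bright, and all 7 had a lower log2 ratio in 0.5MAhR, by 0.09 to 0.35, with 0 past the threshold. The mean of the list was 6.87 to 7.09 over 0.5MAhR arrays and 7.12 to 7.22 over Control arrays. These log2 ratio ranges did not overlap. The summed net Cy5 signal of the list did overlap, at 748588 to 1085450 in 0.5MAhR and 855135 to 1052940 in Control. In Cy5 alone 3 of the 7 were higher in 0.5MAhR. Of the stellate list, cells in which Cyp1b1 can be expressed, 6 of 7 were tested, and their mean was 0.18 to 0.63 over 0.5MAhR arrays and 0.32 to 0.51 over Control arrays. All 5 Kupffer cell markers were higher in log2 ratio by small amounts, with list means of 2.74 to 3.28 in 0.5MAhR and 2.76 to 3.09 in Control. The endothelial (3.38 to 3.75 against 3.38 to 3.61), cholangiocyte (-0.85 to -0.43 against -0.74 to -0.62) and erythroid lists (5.41 to 6.12 against 5.43 to 5.75) also overlapped between 0.5MAhR and Control, 0 markers of any list passed the threshold, and the lymphocyte marker Cd3e was above background on no array. The 1 lymphocyte marker tested had a log2 ratio of -1.10 to -0.87 in 0.5MAhR and -1.17 to -0.99 in Control. The part of cell composition in the members' differences was not tested.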

How the data were processed

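The 8 two-colour Agilent arrays (0.5MAhR and Control, 4 each) were grouped by the sample labels. The deposited intensity columns had been written by Agilent Feature Extraction 11.0.1.1 for an array design annotated on rat build rn4, per the file headers. The authors' deposited files also held the scanner's log10 ratio of Cy5 over Cy3, converted here to log2. The authors' deposited value table held log2 ratios with column medians of -0.0389 to -0.0326, with no account of its making in the labels or headers. Per array its r with the loess log2 ratios computed here was 0.996 to 0.997, which settled scale and direction but not centring.

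In R 4.3.3 with limma 3.58.1, median signals were corrected by normexp (offset 50) and normalised by loess within arrays, control spots having no weight. Single channels were normalised by quantiles between arrays. Outlier spots (771 to 956 an array) were dropped, and the remaining spots of each probe averaged. A probe was tested if 3 or more of the 4 arrays of a group had it above background in Cy5 (11407 probes, the brightest for each gene, giving 10567 genes or unnamed probes, 6938 named). Of the 4 members, 2 passed that filter. Groups were compared with lmFit and eBayes, two-sided, with Benjamini-Hochberg adjustment over all tested genes. The fits were also run on simulated data with added differences of known size. Those data held slide side and independent noise, without row trends or slide place, and so do not test the calls made here. All adjusted p-values are limma's. With 4 arrays a group, their number limits the precision.

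Symbols and promoters came from RefSeq tables (GRCr8). The members, gene lists, markers and the rule for named genes (the members, receptor genes, list genes past a threshold, the 5 genes most like Cyp1a1 and Cyp1a2, and chromosomal neighbours) were chosen with earlier results of these data known. A gene that the rule took and a marker are not reported here. Alternatives were slide side, slide place, background, offset, filter, normalisation, the scanner's and deposited ratios, a trended robust variance, every probe tested on its own and leaving out single arrays.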

Additional observations from a re-analysis of the deposited data

Results flagged for a closer look

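The net Cy3 signal of Cyp1a2 on Control replicate 6 was 219, below the 273 to 278.75 of the other Control arrays, a gap that exceeded Dixon's critical value for 4 samples. It was the 1 such case in 40 groups of values checked, and chance alone would give about 1 in 20. All 4 Control arrays, this one included, lay below the 0.5MAhR arrays. Without Control replicate 6 the Cy3 difference of Cyp1a2 was 1.33 (adjusted p = 0.0132 in limma).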

How the results depend on the processing

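Cyp1a1 kept its direction in log2 ratio and in Cy5 under all alternatives run. With slide place alone as a block it lost both calls (4.04, adjusted p = 0.159, and 3.10, adjusted p = 0.249), and with side and place it kept them. In log2 ratio it also lost its call with the scanner software's ratio (5.20, adjusted p = 0.163) and without some single arrays (3.84 to 4.34 over all fits that left out 1 array). The Cyp1a2 log2 ratio, called under none, turned to -0.16 with the scanner's ratio and to -0.031 in the deposited table. Cyp1a2 in Cy5 alone gained its call with slide side fitted (1.53), also without a filter (1.53) or with place (1.53), and with row trends removed (1.53), and ranged over 1.42 to 1.66 without single arrays. In Cy3 alone Cyp1a1 was never called and Cyp1a2 always. Genes past the threshold in log2 ratio, 1 as reported, numbered 5 with slide side, 5 with side and place, 0 with place alone (76 at an unadjusted p under 0.05 in limma), 6 with slide side and no filter, 6 with row trends removed, 0 with the scanner's ratio (600 at an unadjusted p under 0.05 in limma), and 0 to 11 without single arrays. In Cy5 alone they numbered 1, against 14 with slide side, 10 with side and place, 0 with place alone (90 at an unadjusted p under 0.05 in limma), 14 with slide side and no filter, 12 with row trends removed and 1 to 17 without single arrays. In Cy3 alone they numbered 1, against 2 without background correction, 7 with side and place and 1 to 7 without single arrays. The causes were not tested. Row-trend removal, slide place and the joint settings were chosen after seeing the data. No paired analysis was possible because the groups share no replicate numbers, and slide place paired positions, not animals. Signal over background limited Cyp1b1 and Ahrr.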
